A study of Mus musculus with 4 samples.

Results

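The genes of the insulin-like growth factor (IGF) system were followed in EGFP-labelled interstitial cells of the mouse testis, sorted by staining for the basement membrane protein laminin. The set held 10 genes, taken as the rows of the deposited expression table whose gene symbol was Igf1, Igf2, Igf1r, Igf2r or one of Igfbp2 to Igfbp7. All 10 were found among the 22802 rows of the table, each under its own symbol. The filter on low values asked for an FPKM (fragments per transcript length and sequencing depth) of at least 1 in at least 2 libraries. It was passed by 12348 rows, all 10 genes among them. The 10 genes reached 1 FPKM in every library of both populations.

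Cells came from testes of C57BL/6J mice that carry 2 transgenes, mFLE-Cre and CAG-CAT-EGFP. The second is a reporter that turns on EGFP in cells where Cre has acted and in their descendants. Testes were dispersed at postnatal day 10, and 2 samples each of laminin-negative and laminin-positive cells were sequenced. Both populations thus shared strain, alleles and age and received no treatment that the labels name. The sample labels call both EGFP-positive, whereas the text on the design calls the EGFP of the laminin-negative cells weak, so laminin staining and EGFP level cannot be told apart. The labels do not say which cells the Cre line marks. Nor is it stated whether duplicates were drawn from different animals. All p-values therefore reflect the scatter of these libraries alone, and that scatter may be technical.

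IGF1 and IGF2 are small secreted hormones related to insulin that promote growth and survival. Both signal through the tyrosine kinase IGF1R, whereas IGF2R, the cation-independent mannose 6-phosphate receptor, takes up IGF2 for degradation in lysosomes. Secreted binding proteins hold most IGF outside cells: IGFBP2 to IGFBP6 bind it with high affinity, and IGFBP7 binds it weakly. In the testis, IGF signalling is known to promote the growth and steroid production of Leydig cells.

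Values summed to 491475 to 548986 FPKM per library, and read totals were not stated in the labels or files, so the counting error of single values is unknown. Calls on the lists of cell type markers follow the limma test given below, by which 26.3% of all tested genes were lower and 26.6% higher. Of Leydig cell genes, 6 of 6 were lower in laminin-positive cells. Their summed levels were 161 to 207 FPKM there against 4568 to 4824 FPKM in laminin-negative libraries. All 6 smooth muscle and peritubular myoid genes were higher (154 to 167 against 5345 to 5404 FPKM summed), as were 6 of 6 pericyte genes (46.0 to 49.6 against 310 to 315 FPKM). Among fibroblast genes 5 of 5 were lower, of which 2 passed the filter through the laminin-negative libraries alone. The 5 genes summed to 3101 to 3249 FPKM without and 1680 to 1781 FPKM with laminin, most of it Col1a1. Mean FPKM fell from 2670 to 1478 for Col1a1 and from 320 to 251 for Pdgfra. For Dpt it fell from 103 to 1.20, for Lum from 54.5 to 0.392 and for Pi16 from 27.7 to 0.290. Macrophage genes were low, with sums over 6 genes of 3.54 to 4.86 FPKM without and 23.4 to 29.5 FPKM with laminin, and 4 of the 5 tested passed the filter through the laminin-positive libraries alone. Sertoli cell genes summed to 12.6 to 14.0 against 28.9 to 41.7 FPKM, a gap set mostly by Cldn11 (0.872 and 1.28 against 20.5 and 13.0 FPKM). Sox9 ran the other way, at 10.3 and 9.08 against 8.81 and 6.61 FPKM, without passing the test, and the libraries of Gata1 overlapped. Amh and Dhh were higher but passed the filter through the laminin-positive libraries alone. The sum of 6 germ cell genes was 46.0 to 46.4 FPKM without and 23.1 to 23.2 FPKM with laminin, a gap set by Kit, and the other 5 ran higher with laminin. Of 6 endothelial genes, Cdh5 was at 165 and 173 FPKM without and 9.89 and 9.25 FPKM with laminin, and Tek was also lower. Pecam1, Kdr, Tie1 and Emcn ran higher with laminin, at 2.32 FPKM or less, with Tie1 listed at 0 in both laminin-negative libraries. The 4 matched erythroid genes summed to at most 1.06 FPKM. The part of cell composition in the values below was not tested, and fewer cells of a type cannot be told apart from less RNA per cell.

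Of the 10 genes, 8 were lower in laminin-positive cells, 0 were higher, and Igf1 and Igfbp7 did not pass the test. The test was limma on log2(FPKM + 1), two-sided, with Benjamini-Hochberg adjustment over all 12348 genes and a threshold of 0.05. Over all tested genes 26.3% were lower by this rule and 26.6% higher, 52.9% together. Scaled to the same FPKM total, the split over all genes was 4255 higher to 2382 lower, against 3288 to 3245, and 8 of the 10 were still lower. The median log2 difference (laminin-positive minus laminin-negative, on the log2(FPKM + 1) scale) was -0.96 over the 10 genes and 0.01 over all tested genes. A fall of at least 1 on this scale was reached by 3 of the 10, Igfbp2, Igfbp3 and Igfbp4, as by 5.89% of all tested genes. The same 3 fell by at least 2, as did 1.73% of all tested genes. Without variance shared across genes, 5 of the 10 were called lower and Igf1r, Igf2r and Igfbp5 were not (limma adjusted p = 0.107, 0.0700 and 0.0744).

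**Figure D1:**
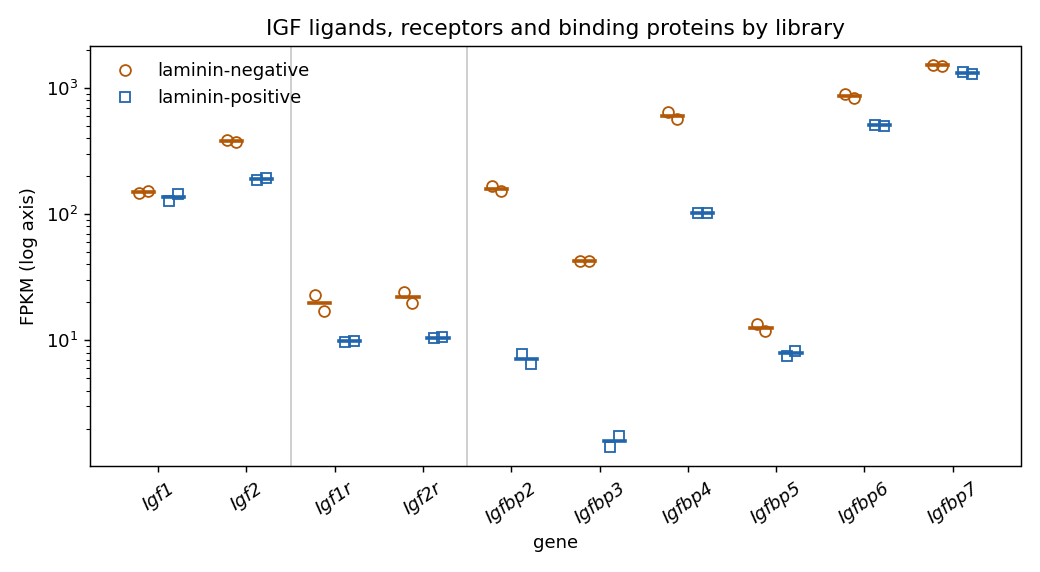
FPKM of the 10 genes in every library, on a log axis, with laminin-negative libraries as circles, laminin-positive libraries as squares and the mean of each pair as a bar. Laminin-negative libraries lay above laminin-positive ones for each gene, by the widest margin for Igfbp2 (152 to 167 against 6.47 to 7.87 FPKM) and Igfbp3 (42.3 to 42.7 against 1.42 to 1.76 FPKM). The margin was narrowest for Igf1 (147 to 152 against 127 to 145 FPKM). Over all tested genes the populations did not overlap in 77.2% of cases, and in 37.8% laminin-positive was the lower.

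The populations differed most in the binding proteins Igfbp2, Igfbp3 and Igfbp4 and least, among binding proteins, in Igfbp7. The 250 bases before the start sites of these 4 genes are therefore shown first, from RefSeq on GRCm38, 5′ to 3′ on the strand of the gene. Capitals mark the GC box GGGCGG on either strand, the core recognised by Sp1-type factors, and the TATA box TATAAA on either strand.
Igfbp2, chr1:72824230-72824479, plus strand: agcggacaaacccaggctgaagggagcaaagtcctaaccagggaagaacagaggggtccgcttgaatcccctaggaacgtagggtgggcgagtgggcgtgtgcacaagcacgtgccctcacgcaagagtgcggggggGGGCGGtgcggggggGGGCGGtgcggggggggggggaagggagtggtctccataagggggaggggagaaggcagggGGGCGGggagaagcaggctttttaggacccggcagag
Igfbp3, chr11:7213924-7214173, minus strand: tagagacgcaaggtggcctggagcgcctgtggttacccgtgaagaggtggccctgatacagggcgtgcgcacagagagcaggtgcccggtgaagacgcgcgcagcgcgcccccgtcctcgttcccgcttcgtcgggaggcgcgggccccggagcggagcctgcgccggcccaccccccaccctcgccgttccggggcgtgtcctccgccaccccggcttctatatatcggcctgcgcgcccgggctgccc
Igfbp4, chr11:99040994-99041243, plus strand: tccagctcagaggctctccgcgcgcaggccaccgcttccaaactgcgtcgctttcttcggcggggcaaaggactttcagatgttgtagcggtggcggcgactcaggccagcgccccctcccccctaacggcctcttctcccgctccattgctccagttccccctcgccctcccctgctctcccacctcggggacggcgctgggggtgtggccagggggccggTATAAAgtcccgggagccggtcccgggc
Igfbp7, chr5:77408046-77408295, minus strand: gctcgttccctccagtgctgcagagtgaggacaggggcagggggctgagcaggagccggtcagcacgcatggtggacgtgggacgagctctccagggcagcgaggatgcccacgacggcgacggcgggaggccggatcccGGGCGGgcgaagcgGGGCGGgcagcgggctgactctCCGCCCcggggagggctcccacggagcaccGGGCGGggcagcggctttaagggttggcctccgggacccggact
Igfbp2 held 3 GC boxes and Igfbp7 held 4, while Igfbp3 and Igfbp4 held none. Among the other members, the windows of Igf1r and Igf2r held 2 and 3. Of 32851 RefSeq promoter windows of this length, 32.7% held a GC box. Of the 4 windows shown, that of Igfbp4 held a TATAAA, beginning 28 bases before the start, as did 12.4% of all promoters. The windows were rich in G and C, at 67.2% for Igfbp2, 73.2% for Igfbp3, 69.2% for Igfbp4 and 74% for Igfbp7, against a median of 52.4% over all promoters. The number of CpG pairs ran from 14 in Igfbp2 and 22 in Igfbp4 to 26 in Igfbp7 and 32 in Igfbp3, with a median of 6 over all promoters. Searches on both strands for an NR5A1 site (CAAGGTCA, held by 1.33% of all promoters), a CRE (TGACGTCA, 1.55%), a GLI site (GACCACCCA, 0.225%) and an AP-1 site (TGAGTCA, 4.46%) found no match in the windows of any of the 10 genes. An E-box (CANNTG, N any base, 66.2% of all promoters) was found in every window except those of Igf1r and Igfbp7. An RBPJ site (TGGGAA, 21.6%) was found in the windows of Igf1 and Igf2 alone. Only 1 start site per gene was searched, the listed one nearest to the 5′ end of its row. Igf2 had 4 listed starts and Igfbp2 had 2, and their other starts were not searched. The start sites used for Igf1, Igf2 and Igf2r lay 2055, 3540 and 98437 bases from the 5′ end of their rows. For 6 of 10 genes the last 25 listed bases, after the start site, were found in an annotated transcript of the gene. A match is a run of letters only, and no binding was measured.

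The ligand Igf2 was lower in laminin-positive cells and Igf1 did not pass the test. Igf2 (chromosome 7, 142650766 to 142666816, minus strand, GRCm38) stood at 386 and 371 FPKM without laminin and at 187 and 195 FPKM with it. The pairs were well apart, with means of 378 ± 10.4 FPKM (SD, n = 2) and 191 ± 5.67 FPKM, a 1.98-fold difference (log2 difference -0.98, SE 0.07, limma adjusted p = 8.73e-07). Igf1 (chromosome 10, 87858265 to 87937042, plus strand) was listed at 147 and 152 FPKM in laminin-negative and at 127 and 145 FPKM in laminin-positive libraries. Its laminin-positive replicate 2 lay just below the lower laminin-negative library, and its log2 difference of -0.14 had a 95% interval from -0.31 to 0.04 (limma adjusted p = 0.174). A fall of Igf1 as large as that of Igf2 thus lies outside this interval.

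Igf2 was the more abundant ligand transcript in every library, by a ratio to Igf1 of 2.63 and 2.44 in laminin-negative and of 1.47 and 1.35 in laminin-positive libraries. Such ratios within a library do not depend on scaling between libraries. Igf1 made up 27.5% and 29.1% of the summed ligand FPKM in laminin-negative and 40.5% and 42.5% in laminin-positive libraries. The summed ligand level was 1.61-fold lower in laminin-positive cells, at 327 ± 17.9 FPKM against 528 ± 6.47 FPKM. The 2 sums differed by more than the spread between replicates, and most of the difference was Igf2.

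The neighbourhood of Igf2 held transcripts that moved both ways. H19, the maternally expressed noncoding RNA that lies 72.6 kb from Igf2 and is imprinted with it, rose from 149 and 131 FPKM to 260 and 283 FPKM, which on the log2 scale is 0.96 with SE 0.08 (limma adjusted p = 3.84e-06). The ratio of H19 to Igf2 was 0.385 and 0.352 in laminin-negative and 1.39 and 1.45 in laminin-positive libraries, so the order of these transcripts was opposite in the populations. The insulin gene Ins2, on the other side at 11.8 kb, fell from 13.2 and 13.7 FPKM to 2.05 and 0.672 FPKM. Its log2 difference on FPKM + 1 was -2.68 (SE 0.22, limma adjusted p = 2.11e-06). Plagl1, an imprinted transcription factor known to act on the Igf2 and H19 region, fell 3.32-fold, from 143 and 117 FPKM to 38.4 and 40.2 FPKM. Of 4 tested genes in the list of Igf2 regulators and binding proteins of its mRNA, 2 were higher (H19 and Ctcf) and 2 lower (Plagl1 and Igf2bp2). Without laminin-negative replicate 1 or laminin-positive replicate 2, the number called higher was 1. Igf2bp1 and Igf2bp3, which bind Igf2 mRNA, were below the filter at 0.0980 to 0.555 and 0.642 to 1.01 FPKM.

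Both IGF receptors were lower in laminin-positive cells, by nearly the same ratio. Igf1r (chromosome 7, 67952827 to 68233668, plus strand) was at 22.8 and 17.04 FPKM in laminin-negative and at 9.75 and 9.91 FPKM in laminin-positive libraries, a 2.03-fold difference of means (log2 difference -0.94, SE 0.12, limma adjusted p = 8.18e-05). Igf2r (chromosome 17, 12682406 to 12769664, minus strand) was at 24.2 and 19.7 FPKM against 10.4 and 10.6 FPKM, a 2.09-fold difference (log2 difference -0.99, SE 0.10, limma adjusted p = 1.59e-05). For both, the laminin-negative libraries were farther apart than the laminin-positive ones, with replicate 1 the higher, yet no library of one population reached the other. The ratio of Igf1r to Igf2r was 0.941 and 0.865 in laminin-negative and 0.939 and 0.933 in laminin-positive libraries, so the ratios overlapped.

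The Igf2r row shares the span it gives with the rows of Airn, the imprinted antisense RNA that crosses Igf2r, and of Mas1. Airn was at 9.94 and 8.87 FPKM in laminin-negative and at 4.89 and 9.44 FPKM in laminin-positive libraries, and Mas1 did not exceed 0.108 FPKM. Whether the authors' values separate the strands is not stated, so reads of Igf2r and Airn may be mixed.

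The insulin receptor gene Insr went the other way, from 7.58 and 6.20 FPKM to 9.58 and 10.3 FPKM. Its log2 difference on FPKM + 1 was 0.47 (SE 0.11, limma adjusted p = 0.00416). INSR is related to IGF1R, forms hybrid receptors with it, and in 1 splice form binds IGF2, but the table does not resolve splice forms. Without variance shared across genes its call was lost (adjusted p = 0.147). Igf1r exceeded Insr by ratios of 3.01 and 2.75 in laminin-negative libraries, against 1.02 and 0.964 in laminin-positive ones, so the pair were near equal in FPKM in laminin-positive cells. The Insr row starts at 3150922 and the annotated gene, on the minus strand of chromosome 8, at 3122061, so the row leaves out the annotated 3′ end. Its effect on the level of Insr beside Igf1r was not tested. Insrr, the orphan receptor of the family, was at 3.26 and 2.92 FPKM against 0.817 and 0.855 FPKM.

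**Figure D2:**
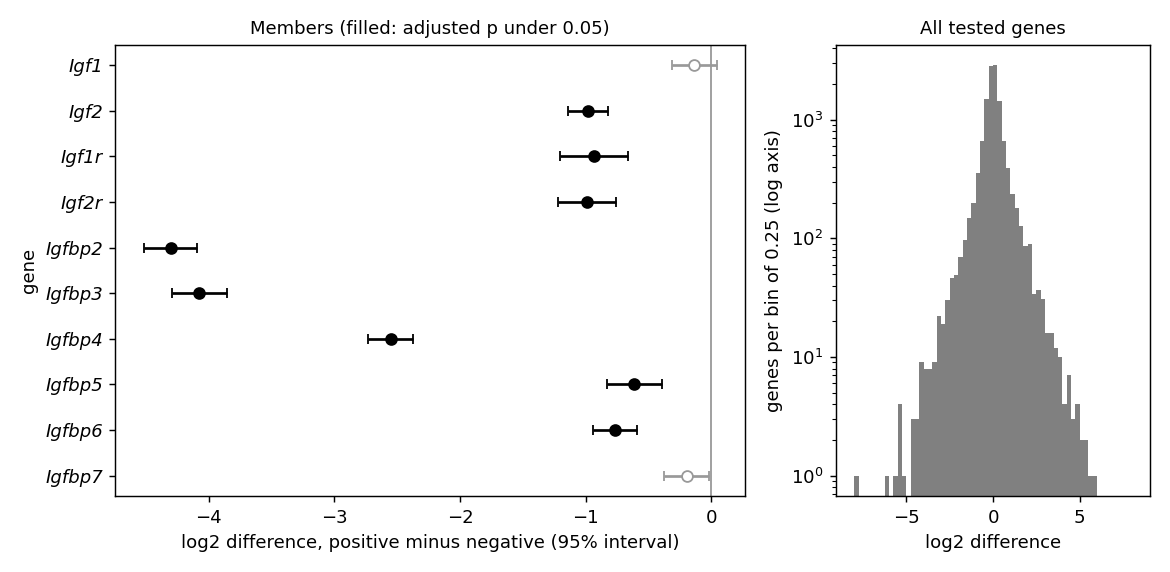
Left, log2 difference of each of the 10 genes with its 95% interval from limma, filled where the adjusted p was under 0.05; right, the differences of all 12348 tested genes, with the number of genes on a log axis. Igfbp2, Igfbp3 and Igfbp4 lay at -4.30, -4.07 and -2.55, while the interval of Igf1 crossed 0 and that of Igfbp7 ended at -0.02.

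Among the high-affinity binding proteins all 5 were lower in laminin-positive cells, from 26.7-fold for Igfbp3 to 1.60-fold for Igfbp5. Over all tested genes 26.3% were lower, and the call of Igfbp5 was lost without variance shared across genes. Igfbp2 (chromosome 1, 72824503 to 72852474, plus strand), an inhibitor of IGF action that also binds integrins, was at 167 and 152 FPKM in laminin-negative and at 7.87 and 6.47 FPKM in laminin-positive libraries. Its means differed 22.3-fold, and its log2 difference, taken on FPKM + 1, was -4.30 (SE 0.10, limma adjusted p = 1.51e-10). The gene moved from rank 471 of all rows by mean FPKM to rank 7758.

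Igfbp3 (chromosome 11, 7206086 to 7213923, minus strand), the main IGF carrier of blood, was at 42.3 and 42.7 FPKM against 1.42 and 1.76 FPKM. Its log2 difference on FPKM + 1 was -4.07 (SE 0.10, limma adjusted p = 2.63e-10). Its laminin-positive values were close to the filter, so the size of its ratio is uncertain: with a pseudocount of 5 its log2 difference was -2.85 and with 0.1 it was -4.66. Igfbp4 (chromosome 11, 99041244 to 99054392, plus strand), which blocks IGF until it is cleaved, was at 645 and 565 FPKM against 102 and 103 FPKM. It fell 5.92-fold (log2 difference -2.55, SE 0.08, limma adjusted p = 1.37e-09) and was the largest single part of the drop in binding protein FPKM. These 3 genes were thus far apart between populations, with spreads between replicates that were small beside the difference.

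Igfbp5 and Igfbp6 differed less. Igfbp6 (chromosome 15, 102144362 to 102149511, plus strand), which prefers IGF2 over IGF1, was at 901 and 832 FPKM in laminin-negative and at 512 and 504 FPKM in laminin-positive libraries, a 1.71-fold difference (log2 difference -0.77, SE 0.08, limma adjusted p = 1.29e-05). Igfbp5 (chromosome 1, 72857932 to 72874884, minus strand), which binds extracellular matrix, was the least abundant of the 10 genes in laminin-negative cells, at 13.4 and 11.9 FPKM, and stood at 7.58 and 8.20 FPKM in laminin-positive ones (log2 difference -0.62, SE 0.10, limma adjusted p = 3.71e-04). Neither gene had overlapping libraries. Over all tested genes the libraries of the populations did not overlap in 77.2% of cases, and in 37.8% laminin-positive was the lower.

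Igfbp7 (chromosome 5, 77349240 to 77408041, minus strand), a secreted protein of vessel walls and matrix, was the most abundant of the 10 genes in both populations. It was at 1523 and 1503 FPKM in laminin-negative and at 1337 and 1302 FPKM in laminin-positive libraries, which did not overlap. Its log2 difference of -0.20 had a 95% interval from -0.38 to -0.02, and it missed the threshold after adjustment (limma adjusted p = 0.0629). Quantile normalization turned the difference to 0.09, so no direction is given for it. Its row shares its span with that of Polr2b on the other strand, a gene at 19.9 to 22.7 FPKM. Igfbp1, the binding protein of liver and decidua, was listed at 0 in every library.

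Igfbp2 and Igfbp5 are neighbours whose levels were far apart in laminin-negative cells and overlapped in laminin-positive ones. They lie tail to tail on chromosome 1, 5.46 kb apart with no coding gene between them, and the ratio of Igfbp2 to Igfbp5 was 12.5 and 12.8 in laminin-negative against 1.04 and 0.788 in laminin-positive libraries. Igfbp3 lies 3.54 kb from Igfbp1 on chromosome 11, in the same arrangement.

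The order of levels by FPKM, a scale set per transcript length, differed between populations. In laminin-negative cells it ran Igfbp7, Igfbp6, Igfbp4, Igf2, Igfbp2, Igf1, Igfbp3, Igf2r, Igf1r and Igfbp5 by mean FPKM, and among neighbours in this order Igf2r and Igf1r overlapped. In laminin-positive cells it ran Igfbp7, Igfbp6, Igf2, Igf1, Igfbp4, Igf2r, Igf1r, Igfbp5, Igfbp2 and Igfbp3, and Igfbp5 and Igfbp2 overlapped. Both ligands thus ranked above Igfbp4 in laminin-positive cells and below it in laminin-negative ones.

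**Figure D3:**
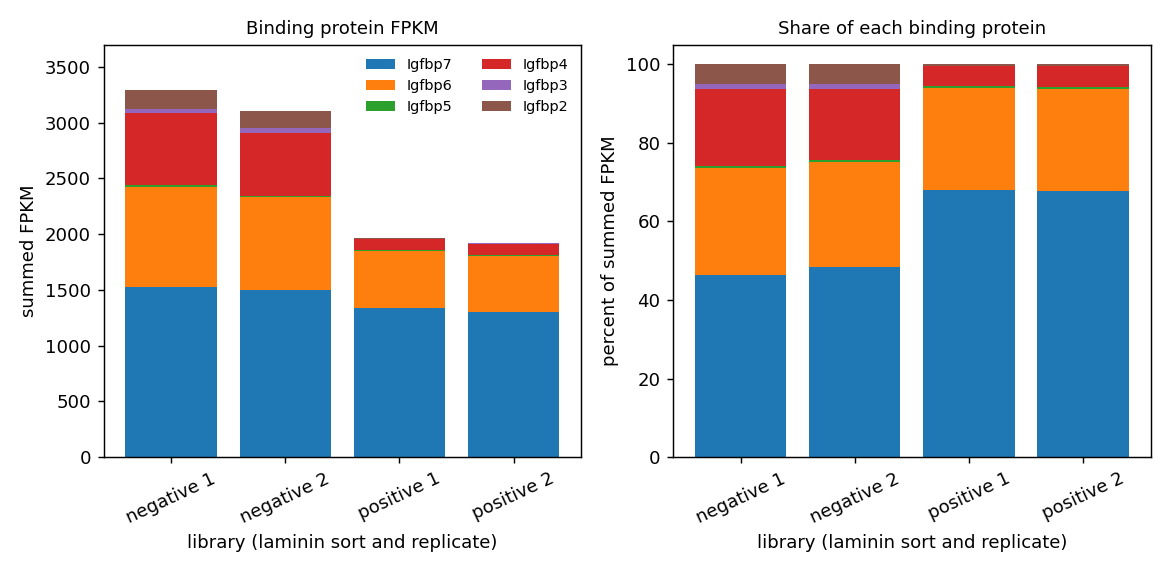
Summed FPKM of Igfbp2 to Igfbp7 in each library (left, stacked from 0) and the percent of that sum from each gene (right). The sum was 3292 and 3107 FPKM in laminin-negative and 1967 and 1925 FPKM in laminin-positive libraries, where Igfbp7 and Igfbp6 made up nearly all of it.

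Summed over Igfbp2 to Igfbp7, binding protein FPKM was 1946 ± 30.2 with laminin against 3200 ± 131 without (SD, n = 2), 1.64-fold lower. This was close to the 1.61-fold difference of the ligands, and the ratio of binding protein to ligand FPKM overlapped, at 6.19 and 5.94 in laminin-negative and 6.25 and 5.66 in laminin-positive libraries. Without the low-affinity Igfbp7 the populations separated: Igfbp2 to Igfbp6 stood at 3.32 and 3.07 times the ligand sum in laminin-negative and at 2.005 and 1.83 times in laminin-positive libraries. Igfbp7 made up 46.3% and 48.4% of the binding protein sum in laminin-negative and 67.9% and 67.6% in laminin-positive libraries.

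The make-up of the high-affinity group also differed. Igfbp6 was 50.9% and 51.9% of Igfbp2 to Igfbp6 in laminin-negative and 81.2% and 80.8% in laminin-positive libraries. Igfbp4 was 36.5% and 35.2% against 16.1% and 16.5%, and Igfbp2 9.43% and 9.51% against 1.25% and 1.04%. The ratio of Igfbp4 to Igfbp6 was 0.716 and 0.679 in laminin-negative and 0.198 and 0.204 in laminin-positive libraries. These sums and ratios describe transcripts, not protein, and are given without a test.

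**Figure D4:**
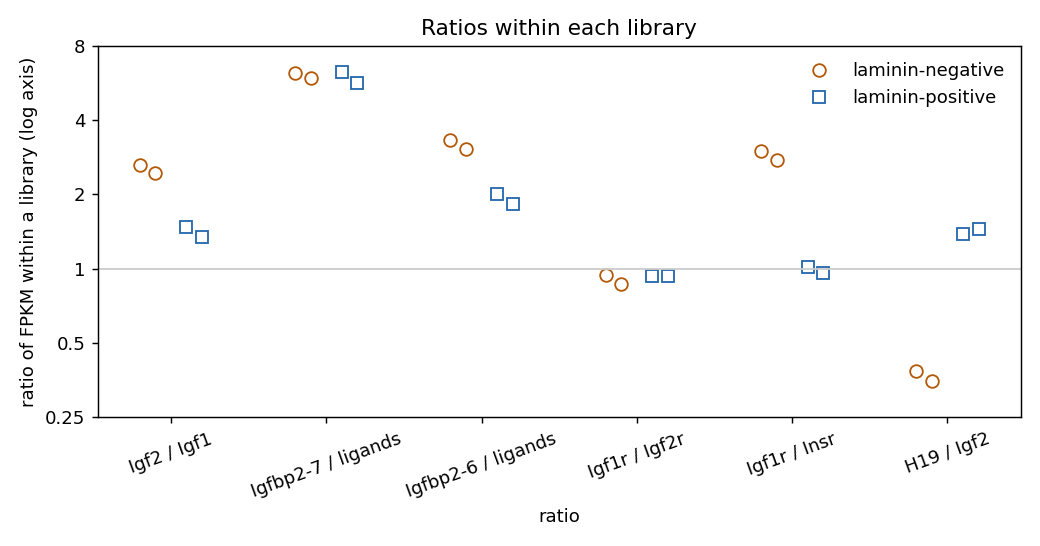
Ratios of FPKM within each library, on a log axis, with laminin-negative libraries as circles and laminin-positive libraries as squares. The ratios of Igf1r to Igf2r and of all binding proteins to ligands overlapped between populations, while those of Igf2 to Igf1, Igfbp2-6 to ligands and Igf1r to Insr were lower, and that of H19 to Igf2 higher, in both laminin-positive libraries.

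Of genes that act on the binding proteins, 6 of 10 tested were lower and 3 higher (median log2 difference -0.41). For this and the lists below, the shares over all tested genes were 26.3% lower and 26.6% higher. The list held IGFBP proteases and their inhibitors. Adam12, a membrane protease that cleaves IGFBP3 and IGFBP5, fell 22.4-fold from 72.5 and 68.8 FPKM to 3.23 and 3.06 FPKM (limma adjusted p = 7.79e-11). The serine protease gene Htra3 fell 2.91-fold, from 1113 and 1095 to 383 and 375 FPKM. Pappa, whose product cleaves IGFBP4, was low throughout, at 1.59 and 1.03 FPKM in laminin-negative against 0.593 and 0.589 FPKM in laminin-positive libraries. Of the stanniocalcins, which inhibit pappalysins, Stc2 rose 3.70-fold from 17.8 and 15.1 to 56.6 and 65.0 FPKM (limma adjusted p = 8.23e-08) and Stc1 fell from 26.3 and 25.2 to 15.4 and 15.9 FPKM. The gelatinase gene Mmp2 rose 2.14-fold, from 103 and 99.5 to 222 and 211 FPKM. Adam28 and Pappa2 were below the filter.

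Partners of the receptors were 4 higher and 2 lower of 6 tested, Insr and Insrr among them (median log2 difference 0.46). The proteoglycan decorin (Dcn), which binds IGF1R, was at 1783 and 2205 FPKM in laminin-negative and at 193 and 213 FPKM in laminin-positive libraries, 9.83-fold lower. The other mannose 6-phosphate receptor gene, M6pr, rose from 39.8 and 42.2 to 54.6 and 58.4 FPKM (limma adjusted p = 5.15e-04), the opposite direction to Igf2r. Lrp2 was below the filter.

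Receptor adaptors were 5 higher and 3 lower of 10 tested (median log2 difference 0.19). Among the docking proteins of the receptors, Irs2 rose 2.39-fold from 25.2 and 23.4 to 64.0 and 52.0 FPKM (limma adjusted p = 2.26e-06). Irs1 was at 9.70 and 6.96 FPKM against 5.82 and 5.92 FPKM and passed with a limma adjusted p of 0.0210. It no longer passed when laminin-negative replicate 1 was left out (adjusted p = 0.138), with equal FPKM sums (0.0707), with no filter (0.0934) and without variance shared across genes (0.279). Grb14, which inhibits the insulin receptor, fell 3.54-fold from 52.3 and 55.7 to 15.2 and 15.3 FPKM. Irs4 was below the filter.

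Genes of the PI3K and AKT branch, which carries the IGF1R signal to growth and survival, were 5 higher and 4 lower of 13 tested (median log2 difference 0.13). The number higher was 3 without laminin-positive replicate 1. The regulatory subunit gene Pik3r2 fell 2.14-fold from 70.9 and 64.1 to 33.3 and 29.8 FPKM, and Pik3r3 rose 2.99-fold from 2.12 and 1.84 to 5.58 and 6.25 FPKM. Pik3cb and Pik3cg were below the filter.

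In the mTOR and FOXO branch 3 of 13 tested genes were higher, 1 lower and 9 did not pass (median log2 difference 0.11). Its fall was the transcription factor gene Foxo6, from 12.8 and 12.2 to 4.71 and 3.35 FPKM, and without laminin-negative replicate 2 the number lower was 2. When every library was scaled to the same FPKM total (ribosomal Rn45s left out), 6 were higher, and the median of all tested genes stood at 0.11. Over the 8 lists together, 28 of 67 tested genes were higher and 22 lower, 50 of 67. Of all tested genes 26.6%, 26.3% and 52.9% were so called, and the median log2 difference of the 67 was 0.16. The 6 with a rise of at least 1 and 12 with a fall of at least 1 compare with 7.29% and 5.89% of all tested genes. These counts include Pappa, Insrr, Ccn3 and Rxfp1, which passed the filter through the laminin-negative libraries alone, and Rln1, which passed through the laminin-positive ones alone, so their calls follow in part from the filter. Without variance shared across genes 12 of the 67 were higher and 15 lower, and the calls of Irs2, Foxo6 and Ins2 were lost (limma adjusted p = 0.0622, 0.0672 and 0.0793), as was every rise among receptor partners and Igf2 regulators, H19 and M6pr included.

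Other genes with an IGF-binding domain were higher in 5 and lower in 1 of 6 tested cases (median log2 difference 0.85). Ccn2, a matrix-associated growth factor listed under the symbol Ctgf, rose 5.48-fold from 141 and 142 to 784 and 771 FPKM (limma adjusted p = 7.27e-10). Ccn3, listed as Nov, was at 3.54 and 3.37 FPKM against 0.0167 and 0.0301 FPKM, and the size of that ratio is uncertain. It was the 1 gene called lower and passed the filter through the laminin-negative libraries alone. Of the 11 genes listed, 5 were below the filter.

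Insulin and relaxin ligands and receptors were 3 lower and 1 higher of 5 tested (median log2 difference -1.80), and 2 were higher without laminin-negative replicate 1. Insl3, the relaxin-like hormone of Leydig cells and also in the Leydig list above, shares its row with Jak3, and that row fell from 4080 and 3822 to 126 and 87.0 FPKM. The relaxin receptor gene Rxfp1 was at 2.50 and 2.47 FPKM in laminin-negative cells and listed at 0 in both laminin-positive libraries. Rxfp1, whose log2 difference is the median of the list, passed the filter through the laminin-negative libraries alone. Rln1, the 1 gene called higher, passed it through the laminin-positive ones alone. Both calls and the median thus follow in part from the filter. Of the 9 genes listed, 4 were below the filter, among them Ins1, which was listed at 0 in every library.

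**Figure D5:**
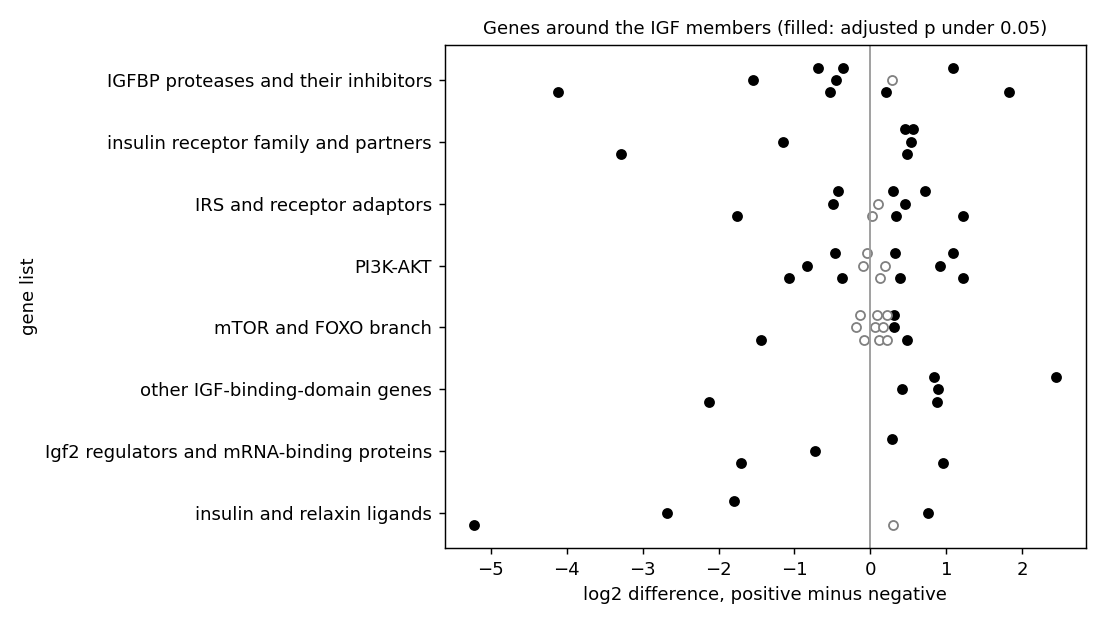
Log2 difference of each tested gene in the 8 lists around the 10 genes, filled where the limma adjusted p was under 0.05 and open otherwise. Most lists hold genes on both sides of 0, with the lowest point at -5.22 for the row of Insl3 and Jak3 and the highest at 2.45 for Ccn2.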

How the data were processed

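Libraries of sorted cells' total RNA (RNeasy micro) came from a NEBNext directional kit, per the labels' protocols. The authors deposited 1 FPKM value per gene locus and library, per the file headers. TopHat2 2.1.1 and Cufflinks 2.2.1 are listed, with no role, per the submitters' processing notes. Information on build, gene models, strand option and library scaling was not given in the sources used here. Of 21203 unique symbols, 99.6% of rows overlapped the gene of that symbol in GENCODE M21 (GRCm38), whose coordinates are printed. A row's span can cover several overlapping genes.

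Genes with at least 1 FPKM in at least 2 libraries (12348) were compared on log2(FPKM + 1), which understates changes of low genes, with limma 3.58.1 in R 4.3.3 (empirical Bayes with an intensity trend, no replicate block, 2 residual degrees of freedom). The script was tested on simulated data. Fold differences are ratios of mean FPKM. The smallest values showed no step of whole fragments, so depth is unknown and precision rests on the replicates. Replicates shared 0 and 1 identical values above 0 and were kept as separate samples.

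All 10 members are named, with genes of the 8 surrounding lists that passed with a log2 difference of at least 1 (at most 4 a direction), Insr and Igfbp1. Other list genes given as values (H19, Pappa, Stc1, M6pr, Irs1, and calls in lists of 4 or fewer) were chosen after their values were seen. The members and lists were chosen with earlier results of these data known. Older symbols were matched through RefSeq synonyms. Scaling, pseudocount, filter, variance model, replicate block and left-out libraries were varied. A list gene that the rule names is not reported here.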

Additional observations from a re-analysis of the deposited data

How the results depend on the processing

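Across 14 alternatives, 136 of 140 recomputed differences of the 10 genes kept their direction and their side of the threshold. The exceptions were the lost calls of Igf1r, Igf2r and Igfbp5 (log2 differences -0.94, -0.99 and -0.62) without variance shared across genes, where 5 of the 10 were lower, and Igfbp7 at 0.0902 under quantile normalization. In every other alternative 8 were lower, and in all 14 none was higher. Without variance shared across genes, 1346 of all tested genes were higher and 1211 lower against 3288 and 3245, and 12 of the list genes were higher against 28, with 15 lower. The cause was not tested. With equal FPKM sums 4255 genes were higher and 2382 lower. Leaving out 1 library at a time gave 2587 to 3254 genes higher and 2610 to 3064 lower, 23 to 29 list genes higher and 19 to 23 lower, with a lone library assumed to vary like the others. The laminin-positive to laminin-negative ratio of binding proteins per ligand was 0.983, between 0.934 and 1.03 with 1 library left out and 0.600 without Igfbp7, which that alternative drops by construction. The same replicate numbers did not deviate together (r = 0.01 across genes), so they are not known to pair samples; with the replicate block 3376 genes were higher, 3343 lower, and 8 of the 10 were lower. Depth is unknown, which limits genes of a few FPKM, such as Igfbp3 in laminin-positive cells.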
